A study of Mus musculus with 6 samples.

Results

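The primary cilium and intraflagellar transport (IFT) genes are a set of 37 genes, read here in embryonic mouse lungs with and without a floxed Fzd2 gene. They were chosen by name, for what their proteins do, with earlier results of these data known. Comparisons of the set with all genes are therefore descriptions. A gene was read from a probe set whose platform annotation carried that symbol alone, and where there were several such probe sets the one with the highest mean over the arrays was used. This gave values for 36 of the 37 genes, among 22180 genes tested. Arl13b had no such probe set, so its expression is not analysed, and it enters only the promoter search below. The study measured whole lung buds dissected at E12.5 on 6 arrays, to find genes that depend on signalling through the Wnt receptor Fzd2 in the lung epithelium. The control group was 3 arrays of Shh cre/+ lungs, and the mutant group was 3 arrays of Fzd2Flox/Flox; Shh cre/+ lungs, so that both groups carried 1 Cre allele at Shh, and the labels name a floxed Fzd2 gene in the mutants alone. Cre made from the Shh locus acts in the lung epithelium, while the RNA came from all cells of the lung bud. The labels call the arrays biological replicates; the sources at hand do not say if each came from 1 embryo or several.

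A primary cilium is a single antenna of microtubules that most embryonic cells, epithelial and mesenchymal, build on a centriole when they are not dividing. Cargo moves along it on IFT trains: the IFT-B complex and kinesin carry it toward the tip, the IFT-A complex and cytoplasmic dynein bring it back, and the BBSome, named for Bardet-Biedl syndrome, helps membrane proteins out. The transition zone at the base acts as a gate. Hedgehog signals, which pass from lung epithelium to mesenchyme, are read out through this organelle, and Fuz, Intu and Wdpcp, first known as planar polarity effectors that work downstream of Frizzled receptors in flies, help IFT trains assemble at its base.

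Levels of the 36 genes were close in mutant and control lungs, and no difference passed a test. With limma, 0 of 36 passed an adjusted p under 0.05 (Benjamini-Hochberg over all 22180 genes, of which 0.0631% passed, 0.018% higher and 0.0451% lower in mutants), and 0 of 36 were at an unadjusted p under 0.05, where 7.34% of all genes were higher and 5.15% lower at that level. The smallest adjusted p among them was 0.445 by limma, for Ift74. The largest difference was 1.10-fold, again in Ift74, and 20.7% of all genes differed by more than that. Group means in mutants ran from 91.3% of the control mean (Ift74) to 105% (Ift22). The 95% interval of the difference stayed within 1.25-fold in both directions for 34 of the 36 genes. For each of those genes a larger change than that, in RNA of the whole lung bud, lay outside its own interval. A change confined to the epithelium was not tested. The exceptions were Bbs2, with an interval from -0.37 to 0.28 on the log2 scale, and Bbs4, from -0.33 to 0.16. Differences here and below are log2 values, mutant minus control, with limma's standard error (SE), and n is 3 and 3 arrays.

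**Figure D1:**
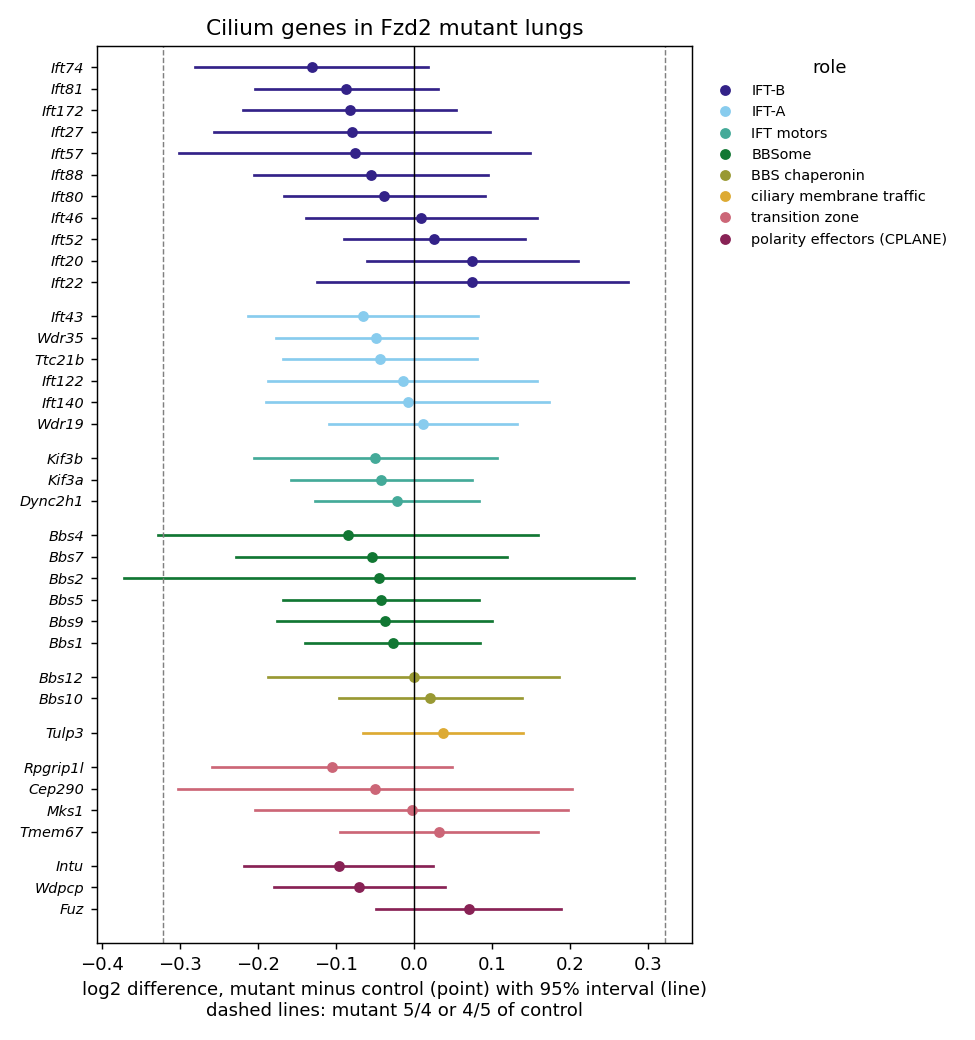
Log2 difference, mutant minus control, of each of the 36 genes (point) with limma's 95% interval (line), n = 3 and 3 arrays, coloured by role; dashed lines mark 1.25-fold. Every interval includes 0, and only those of Bbs2 and Bbs4 cross a dashed line.

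The means leaned slightly lower. In 27 of the 36 genes the mutant mean was below the control mean, against 45.2% of all genes (54.8% were above), and the median difference was -0.042 against 0.011 over all genes. The lean depended most on mutant replicate 2. Without that array, 18 of the 36 genes had a lower mean and 18 a higher one, where 44.3% of all genes were lower. The median was then -0.0001, against 0.0135 over all genes. Without control replicate 2 the lean was smaller but remained. There 22 had a lower mean, where 46.5% of all genes did, and the median was -0.016 against 0.008. Control replicate 2 was the highest of the 6 arrays in 12 of the 36 genes (33.3%, against 18.3% of all genes). Mutant replicate 2 was the lowest of the 6 in 17 of the 36 genes (47.2%), where it was lowest in 20.7% of all genes. Its median over the 36 genes lay 0.082 below the control mean, while those of mutant replicates 1 and 3 lay at 0.007 and -0.012 and those of the controls between -0.018 and 0.021. The lean also depended on scaling. Centring each array on its median moved the median of all genes to -0.027 and that of the cilium genes to -0.080, with 33 of 36 lower where 60.7% of all genes were, and a further quantile normalization gave 0.0001 and -0.018, with 24 of 36 lower.

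**Figure D2:**
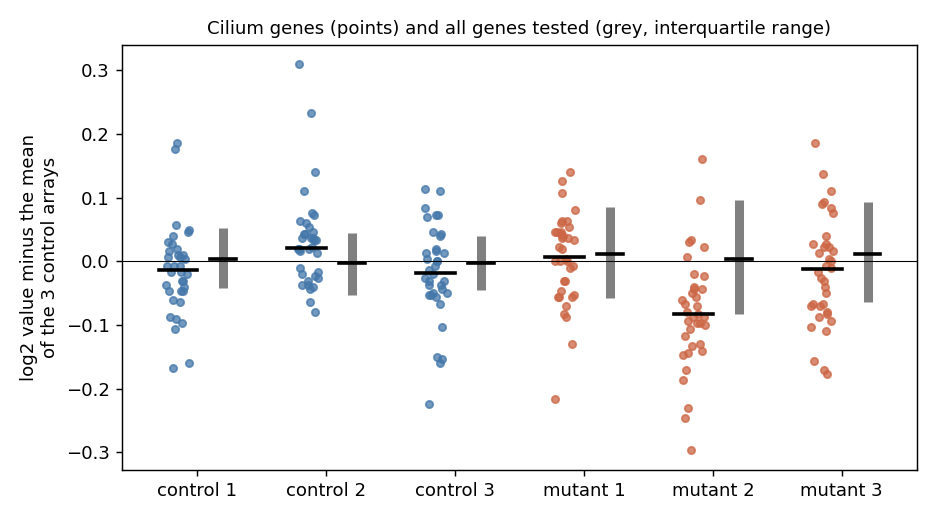
Each point is 1 of the 36 cilium genes on 1 array, as its log2 value minus the mean of the 3 controls; black bars are medians, and grey bars span the interquartile range of all genes tested. The points of mutant replicate 2 are centred at -0.082, and the other 5 arrays have medians from -0.018 to 0.021.

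Mutant replicate 2 was unusual in fat genes as well: the mean of 7 adipose genes was 10.15 there and 7.02 to 7.65 on the other arrays. Control replicate 1 stood apart in 9 genes of the adult small intestine, with a mean of 9.59 against 6.13 to 6.34 elsewhere, and control replicate 2 was the only array at a low level of 3 Y-linked genes (5.63 against 10.39 to 10.53). The part of these in the cilium values was not tested. With control replicate 1 and mutant replicate 2 both left out, 1 of the 36 genes was at an unadjusted p under 0.05, where 12.2% of all genes were, 0 passed limma's adjusted threshold, and the median was -0.0095. Fzd2 itself, the gene meant to be deleted, stood at 9.57, 9.82 and 9.75 in control replicates 1 to 3 and at 9.67, 9.07 and 9.54 in mutant replicates 1 to 3. The groups overlapped (difference -0.29, SE 0.15, two-sided exact permutation p = 0.2, where the smallest possible is 0.1). Mutant replicate 2, the array with the lowest cilium median and with high adipose genes, was also lowest in Fzd2. A link between these was not tested. The lung identity of the samples was clear from Nkx2-1, the lung and thyroid transcription factor, at 10.41 to 10.57 in controls and 10.05 to 10.09 in mutants, and from Tbx4, a factor of lung mesenchyme, at 10.93 to 11.10 on all arrays.

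IFT-B, the complex of the outward trains, had 11 measured genes. Mutant means were below control means in 7 and above them in 4, and the median difference was -0.055. Ift74, which with Ift81 binds tubulin cargo in the core of the complex, had the largest difference of all. Its log2 values were 8.62, 8.78 and 8.72 in controls 1 to 3 and 8.49, 8.62 and 8.62 in mutants 1 to 3. Mutant replicate 1 lay below every control, while the other mutants touched control replicate 1, so the groups overlapped (difference -0.13, SE 0.06, limma adjusted p = 0.445). It was lower under each of the alternatives, from -0.087 without mutant replicate 1 to -0.20 without control replicate 1 and mutant replicate 2, and its adjusted p ran from 0.327 to 0.746. Its partner Ift81 was at 9.30, 9.32 and 9.23 in controls and 9.23, 9.15 and 9.20 in mutants (-0.087, SE 0.051, limma adjusted p = 0.510). There the highest mutant equalled the lowest control to 2 decimals.

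Ift88, the IFT-B subunit whose loss is the classic way to remove cilia in the mouse, was at 9.35, 9.49 and 9.53 in controls and 9.37, 9.36 and 9.48 in mutants. All 3 mutant values lay inside the control range (-0.055, SE 0.065). Ift172, a large subunit that helps trains turn at the tip, differed by -0.082 (SE 0.059), and Ift80 by -0.038 (SE 0.055). Ift57, a peripheral subunit, was spread more among the controls (9.26, 9.11 and 8.85) than among the mutants (8.99, 9.03 and 8.97). Its control SD was 0.20 and its mutant SD 0.029, and the mutants fell in the middle of the control range. Ift27, a small GTPase that links the BBSome to the trains, was within 8.36 to 8.42 on 5 arrays and at 8.14 in mutant replicate 2. Without that array its difference went from -0.080 to 0.0036.

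Ift20, the subunit also found at the Golgi, and Ift22, a second small GTPase of the complex, were the IFT-B genes with the highest differences. Ift20 was at 11.74, 11.77 and 11.69 in controls and 11.84, 11.71 and 11.87 in mutants (0.075, SE 0.058). Ift22 was at 9.63, 9.68 and 9.50 in controls and 9.73, 9.51 and 9.79 in mutants (0.075, SE 0.086). In both genes mutant replicates 1 and 3 lay above all controls and mutant replicate 2 lay within them, so that without mutant replicate 2 the differences were 0.12 and 0.16, still short of limma's threshold. Ift46 and Ift52, core subunits, differed by 0.0095 and 0.026.

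IFT-A, the complex of the return trains, had 6 measured genes with a median of -0.029 and a range from -0.066 (Ift43) to 0.012 (Wdr19). Ift122 and Ift140, core subunits help membrane receptors to enter the cilium. Ift122 was at 9.05, 9.06 and 9.01 in controls and 9.18, 8.90 and 8.99 in mutants, so mutant replicate 1 was the highest and mutant replicate 2 the lowest of all arrays. Its difference was -0.015 (SE 0.074), or 0.046 without mutant replicate 2 and -0.093 without mutant replicate 1. Ift140 was at 8.50, 8.73 and 8.54 against 8.67, 8.49 and 8.58 (-0.0083, SE 0.078). Wdr35 and Ttc21b, 2 further subunits, differed by -0.049 (SE 0.055) and -0.044 (SE 0.054), and all mutant and control ranges in this complex overlapped.

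The motors showed as little difference. Kif3a and Kif3b are the motor subunits of the kinesin that drives trains outward, and Dync2h1 is the heavy chain of the dynein that drives them back. Kif3a was at 9.77, 9.85 and 9.87 in controls and 9.83, 9.77 and 9.76 in mutants (-0.042, SE 0.050). Kif3b was at 8.77, 8.84 and 8.72 against 8.84, 8.63 and 8.71 (-0.050, SE 0.067). Dync2h1 lay between 9.06 and 9.13 on all 6 arrays (-0.022, SE 0.045), and only mutant replicate 2 was outside the control range.

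All 6 measured genes of the BBSome had lower means, between -0.028 (Bbs1) and -0.085 (Bbs4), with groups that overlapped in each. Bbs2 varied most of the 36 genes, and not by genotype. It was at 8.74, 9.21 and 8.75 in controls 1 to 3 and 8.77, 9.06 and 8.73 in mutants 1 to 3, so control replicate 2 and mutant replicate 2 were high and the other 4 arrays lay close together. The difference (-0.045, SE 0.14) turned to 0.11 without control replicate 2 and to -0.15 without mutant replicate 2. Bbs4, which ties the BBSome to centriolar satellites, was at 8.16, 8.56 and 8.26 in controls and 8.27, 8.14 and 8.32 in mutants, with control replicate 2 alone set apart. Its difference turned from -0.085 to 0.033 without that array. Bbs5, Bbs7 and Bbs9 differed by -0.042, -0.054 and -0.037. The chaperonin-like genes Bbs10 and Bbs12, needed to fold BBSome subunits, differed by 0.021 (SE 0.051) and -0.0001 (SE 0.080). For Bbs12 that was the smallest difference of the 36, with 8.99, 9.05 and 8.78 in controls and 8.87, 8.92 and 9.03 in mutants.

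Among the 4 transition zone genes, Rpgrip1l, a scaffold of the gate, was at 9.89, 9.87 and 9.88 in controls and 9.88, 9.65 and 9.80 in mutants. The controls were tight, mutant replicate 1 lay among them and mutant replicates 2 and 3 lay below (-0.11, SE 0.07); without mutant replicate 2 the difference was -0.041. Cep290, which links the membrane to the microtubules there, was at 8.69, 8.77 and 8.90 in controls and 8.85, 8.49 and 8.87 in mutants, with mutant replicate 2 alone below the controls (-0.050, SE 0.11). Its difference turned to 0.073 without that array. Mks1 and Tmem67, 2 genes of Meckel syndrome, differed by -0.0030 (SE 0.086) and 0.032 (SE 0.054). A second probe set of Tmem67, with a lower signal, gave 0.036.

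Tulp3 brings receptors into the cilium together with IFT-A. It was the only 1 of the 36 genes in which all mutants lay above all controls, at 9.58, 9.56 and 9.54 against 9.52, 9.54 and 9.52, with the nearest pair equal to 2 decimals. The difference of 0.037 (SE 0.044) was no larger than its error, and it turned to -0.0014 with arrays centred on their medians.

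Of the 3 polarity effectors, Intu and Wdpcp had all mutants below all controls, and Fuz did not separate. Intu was at 8.54, 8.61 and 8.52 in controls and 8.51, 8.47 and 8.40 in mutants (-0.097, SE 0.052, limma adjusted p = 0.481). Wdpcp was at 8.82, 8.81 and 8.88 against 8.78, 8.74 and 8.77 (-0.070, SE 0.047, limma adjusted p = 0.562). The gaps between the groups were small, as between 8.52 and 8.51 in Intu and between 8.81 and 8.78 in Wdpcp. Fuz was at 9.0, 8.89 and 8.97 in controls and 8.99, 9.05 and 9.03 in mutants, where mutant replicate 1 lay within the controls and the others above them (0.070, SE 0.051). These 3 genes kept their directions under all alternatives: Intu ran from -0.067 to -0.14, Wdpcp from -0.047 to -0.11 and Fuz from 0.032 to 0.094. In all, groups did not overlap in 3 of the 36 genes (8.33%), 1 with mutants above and 2 with mutants below, where 19.4% of all genes did not overlap, 10.6% above and 8.83% below. That share in the cilium genes is no larger than the background. With 5 arrays groups separate more easily. Leaving out mutant replicate 1 gave 2 genes above and 11 below (30.6%), where 17.2% and 15.2% of all genes lay above and below, so the count below then exceeded the background. Leaving out mutant replicate 2 gave 4 and 3, where all genes gave 16.5% and 12.3%. The counts were 3 and 6 (all genes 19.6% and 14.6%) if control replicate 1 was dropped, and 2 and 5 (all genes 15.9% and 12.8%) if control replicate 3 was.

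**Figure D3:**
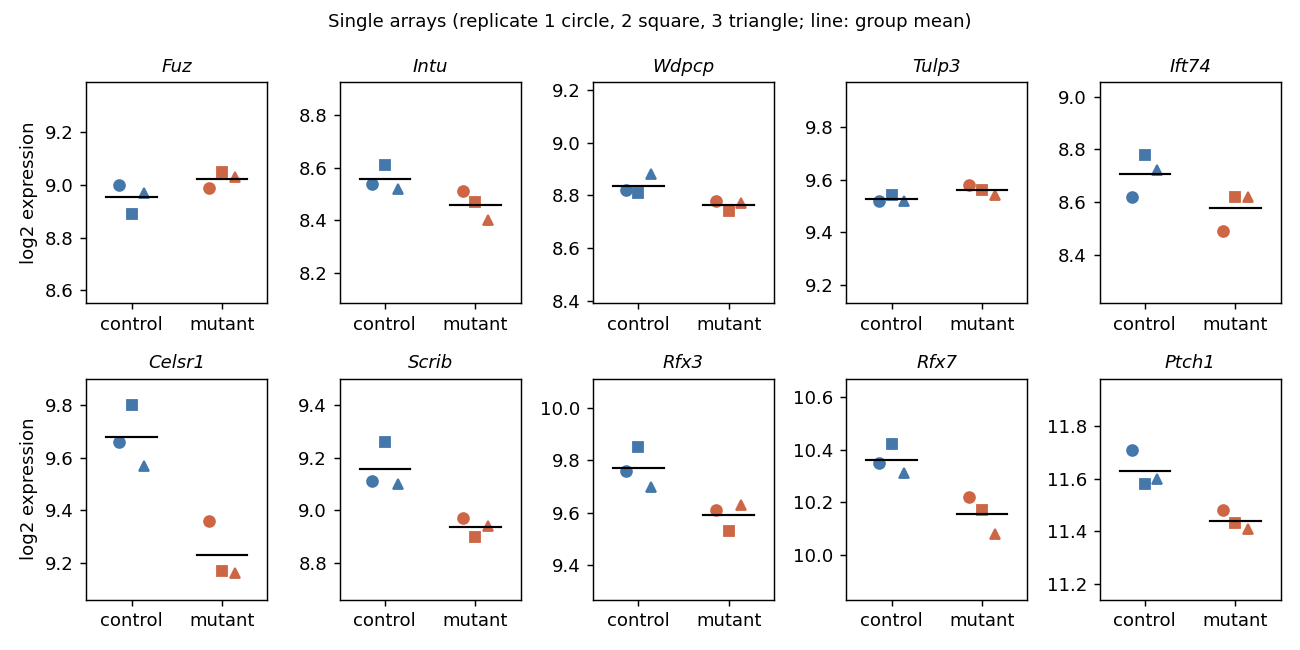
Log2 expression on each array for 5 cilium genes (top) and 5 genes of neighbouring pathways (bottom), with all panels drawn to the same height of log2 units; lines are group means. The 5 lower genes were picked for their separation and differ by -0.18 to -0.45, and the 5 cilium genes by -0.13 to 0.070; the groups also do not overlap in Intu, Wdpcp and Tulp3.

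Core polarity genes act upstream of these effectors. Means were lower in 9 of the 15 measured genes, the median difference being -0.075. At an unadjusted p under 0.05, 4 were lower and 0 higher, where 5.15% and 7.34% of all genes were, and 0 passed limma's adjusted threshold. Celsr1, an atypical cadherin that passes polarity between neighbouring cells, was at 9.66, 9.80 and 9.57 in controls and 9.36, 9.17 and 9.16 in mutants (-0.45, SE 0.08, limma adjusted p = 0.135). Scrib, a scaffold of cell polarity, differed by -0.22 (SE 0.06, limma adjusted p = 0.257) and Celsr2 by -0.28 (SE 0.09, limma adjusted p = 0.297). In these 3 genes every mutant lay below every control, as in 4 of the 15 genes of the list and 8.83% of all genes. Whether they differ from Intu, Wdpcp and Fuz in their response was not tested. Epithelial genes were lower as well: all 22 measured pan-epithelial genes had lower means, 17 of them at an unadjusted p under 0.05 and 1 past limma's adjusted threshold, with list means of 9.20 to 9.28 in controls and 8.89 to 9.02 in mutants. Fewer epithelial cells and less RNA per cell cannot be told apart in whole lungs.

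Cilium genes are known targets of RFX transcription factors, which bind a site called the X-box. In the RefSeq promoter windows of GRCm38.p6, 300 bases that run from 250 before a gene's start to 50 after it, the palindromic form GTNNCCNNGGNNAC (its own reverse complement, N being any base) was present in 8 of the 33 cilium genes with a window, or 24.2%. Of all tested genes with a window 2.37% held it. The shorter RFX motif GTTGCC, on either strand and partly inside the longer form, was in 15 of 33 (45.5%) against 14.1%. Arl13b, which had no expression value, is among these 33 and these 15. Another 50 cilium genes, from lists of IFT, BBS, transition zone and basal body genes outside the set, held the X-box in 10 (20.0%). The X-boxes that lie wholly before the start are shown, since this letter pattern was more frequent in the cilium genes than in all genes, though most of them lack it; they were chosen after the values were seen, and windows with GTTGCC alone are not shown. X-boxes and GTTGCC motifs are in capitals, all 5′ to 3′ on the gene's strand:
Bbs7: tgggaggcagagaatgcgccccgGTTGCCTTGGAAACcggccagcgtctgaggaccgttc
Ift57: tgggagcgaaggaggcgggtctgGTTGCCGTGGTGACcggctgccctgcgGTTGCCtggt
Intu: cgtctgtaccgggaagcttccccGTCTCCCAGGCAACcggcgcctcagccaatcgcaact
Mks1: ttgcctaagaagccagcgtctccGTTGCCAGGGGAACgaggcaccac
Wdr19: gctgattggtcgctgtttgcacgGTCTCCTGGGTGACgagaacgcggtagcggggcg
Ift22: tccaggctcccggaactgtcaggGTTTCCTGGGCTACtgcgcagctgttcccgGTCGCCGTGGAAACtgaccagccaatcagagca

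These stretches lie at chr3:36613474-36613533 on the minus strand (Bbs7) and, on the plus strand, at chr16:49699184-49699243 (Ift57), chr3:40540694-40540753 (Intu), chr11:87853168-87853214 (Mks1), chr5:65199639-65199695 (Wdr19) and chr5:136908064-136908149 (Ift22, which holds 2 X-boxes). The X-box began 121 bases before the start in Bbs7, 87 in Ift57, 63 in Ift22, 50 in Intu, 34 in Wdr19 and 24 in Mks1. In Bbs1 and Bbs4 it lay after the start. A match shows that the letters are there, not that a factor binds them.

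Cilium genes with and without the X-box had nearly the same median difference. The 8 cilium genes that held it had a median difference of -0.041, from -0.097 (Intu) to 0.075 (Ift22), and the 24 measured ones with a window and no X-box had -0.043. Over all tested genes, the 403 with an X-box had a median of -0.0006 with 50.6% lower, against 0.011 and 45.1% among 16587 with a window and no X-box, and 12.2% of each were at an unadjusted p under 0.05. The RFX factors themselves leaned lower. Of 6 genes, 5 had lower means, where 45.2% of all genes did. Rfx7 and Rfx3 were lower at an unadjusted p under 0.05, as were 5.15% of all genes, with 0 past limma's adjusted threshold. Rfx3, a factor of ciliated tissues, was at 9.76, 9.85 and 9.70 in controls and 9.61, 9.53 and 9.63 in mutants (-0.18, SE 0.06, limma adjusted p = 0.315). Rfx7, a broadly expressed member, was at 10.35, 10.42 and 10.31 against 10.22, 10.17 and 10.08 (-0.20, SE 0.06, limma adjusted p = 0.280). In both, and in Rfx2 (-0.097, SE 0.046), every mutant lay below every control, as in 8.83% of all genes. The list is small and was written with earlier results of these data known.

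Cilium genes outside the set were read from lists written with earlier results of these data known. Of 54 measured genes of IFT, BBS, transition zone and basal body, 38 had lower means, with a median of -0.037; 6 were lower and 1 was higher at an unadjusted p under 0.05, and 0 passed limma's adjusted threshold. Of the 6 lower ones, 4 belong to the basal body and centriolar satellites, the base on which a cilium grows. There 15 of 16 genes had lower means, where 45.2% of all genes did, and 4 were lower at an unadjusted p under 0.05, where 5.15% were. These were Ssx2ip (-0.13, SE 0.05), Ninl (-0.13, SE 0.05), Odf2 (-0.11, SE 0.05) and Sclt1 (-0.16, SE 0.07). Odf2 and Sclt1 encode proteins of the appendages of the mother centriole. Odf2 was at 9.11, 9.13 and 9.11 in controls and 9.03, 9.04 and 8.95 in mutants, and Sclt1 at 8.28, 8.36 and 8.51 against 8.27, 8.20 and 8.21. In all 4 the mutants lay below the controls, as in 8.83% of all genes, with limma adjusted p from 0.350 to 0.396.

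Among 13 other IFT-B and motor genes, Ttc30b was higher (0.18, SE 0.06) and Ttc26 (-0.17, SE 0.07) and Ttc30a1 (-0.20, SE 0.08) were lower at an unadjusted p under 0.05. Of all genes, 7.34% were higher and 5.15% lower at that level. Ttc30b and Ttc30a1 are close paralogs, so their opposite values are uncertain where probes could be shared. Of 11 other BBS and membrane traffic genes and 14 other transition zone genes, 0 were at an unadjusted p under 0.05 by limma in either direction. Those with the smallest p were Arl3 (0.095, SE 0.054), Rab3ip (-0.065, SE 0.046) and Ttc8 (-0.057, SE 0.049) in the first list and Rpgr (-0.14, SE 0.07), Tctn3 (-0.096, SE 0.052) and Iqcb1 (-0.068, SE 0.057) in the second.

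Cilia are taken apart before division. All 7 measured genes listed under cilium disassembly, which also held the DNA repair gene Trp53bp1, were lower on average, where 45.2% of all genes were. The median was -0.088, and 0 were at an unadjusted p under 0.05 by limma. The lowest p were those of Nek2 (-0.13, SE 0.06), Kif24 (-0.11, SE 0.06) and Kif2a (-0.088, SE 0.049). Mutant replicate 2 lay lowest there too, with a median 0.15 below the control mean, and also in 9 mitosis genes (0.10 below). Of these 9, 8 had lower means and 0 were at an unadjusted p under 0.05 by limma. Plk1 and Aurka are in both lists. Motile cilium genes belong to the multiciliated cells that arise later in the airway. Their master factor Foxj1 was between 6.55 and 6.68 on all arrays (-0.011, SE 0.053). Of 25 such genes 16 had higher and 9 lower means, where 54.8% of all genes were higher, with a median of 0.024. Besides Rfx3, which is also in this list, Dnali1, an axonemal dynein chain (0.14, SE 0.05), and Tppp3, a tubulin-binding protein (-0.11, SE 0.05), were at an unadjusted p under 0.05, and 0 passed limma's adjusted threshold.

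**Figure D4:**
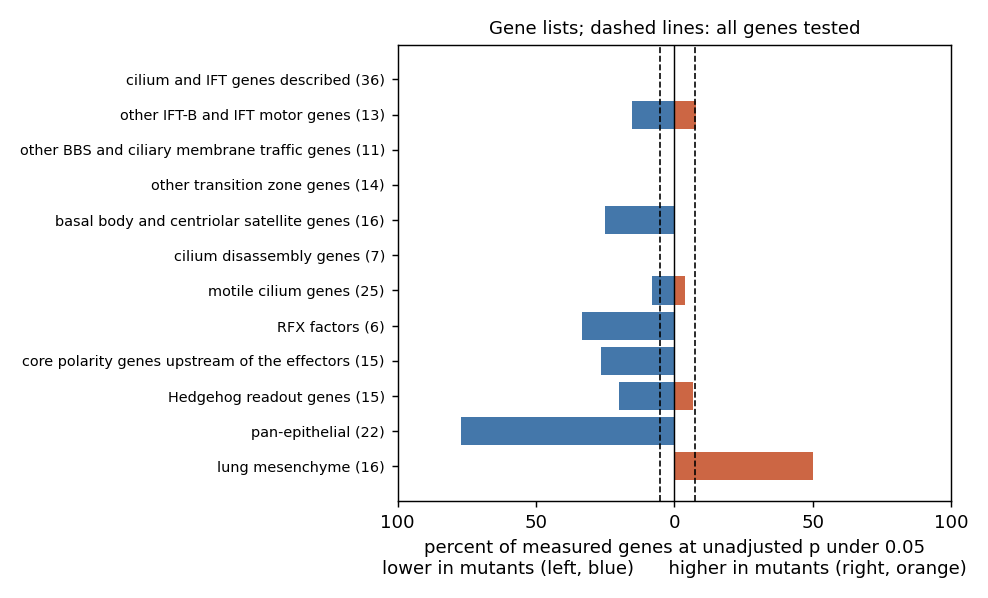
Percent of the measured genes of each list (number in brackets) at an unadjusted limma p under 0.05, lower in mutants to the left and higher to the right; dashed lines are the shares over all genes, 5.15% lower and 7.34% higher. The 36 cilium genes have none on either side.

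The listed Hedgehog genes encode the ligand, receptors, transducers and targets of the signal that the primary cilium passes on. Of 15 measured genes, 10 had lower and 5 higher means, with a median of -0.063. At an unadjusted p under 0.05, 3 were lower and 1 (Gas1, a Hedgehog coreceptor, 0.16, SE 0.07) higher, and 0 passed limma's adjusted threshold. Of all genes, 5.15% were lower and 7.34% higher at that level. Hhip, an inhibitor made in response to the signal, was at 10.41, 10.47 and 10.30 in controls and 10.16, 10.20 and 10.14 in mutants (-0.23, SE 0.06, limma adjusted p = 0.230). Ptch1, the receptor and a target, was at 11.71, 11.58 and 11.60 against 11.48, 11.43 and 11.41 (-0.18, SE 0.05, limma adjusted p = 0.285). The ligand gene Shh, which also carries the Cre allele in both groups, was at 6.88, 7.39 and 7.17 against 6.89, 6.70 and 6.74 (-0.37, SE 0.12, limma adjusted p = 0.317). Mutants lay below all controls in Hhip and Ptch1, as in 8.83% of all genes, and overlapped them in Shh. The target Gli1 (-0.089, SE 0.079) and the ciliary transducer Smo (-0.013, SE 0.059) differed by about their errors or less.

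Other cell types whose share could move the values of a gene expressed in all cells were read from markers. Lung mesenchyme genes had higher means in 10 of 16, where 54.8% of all genes did (list mean 10.38 to 10.42 in controls, 10.52 to 10.58 in mutants). Of the 16, 8 were higher at an unadjusted p under 0.05 (7.34% of all genes), 1 of which passed limma's adjusted threshold. The highest were Lum (0.61), Dcn (0.54) and Prrx1 (0.50). The 6 with lower means were Tcf21 (-0.10), Tbx5 (-0.093), Meox2 (-0.0835), Foxf1 (-0.055), Tbx4 (-0.0485) and Wnt2 (-0.0036). Leukocyte genes were higher in 5 of 8 (8.29 to 8.31 and 8.39 to 8.52) and mesothelial genes in 6 of 6 (8.64 to 8.85 and 8.88 to 9.04). Smooth muscle genes were lower in 6 of 8 (9.77 to 9.88 and 9.55 to 9.73). Endothelial genes were lower in 6 of 9 (9.89 to 9.97 and 9.85 to 9.97) and erythroid genes in 4 of 6 (8.46 to 8.70 and 8.44 to 8.72). Neural genes were higher in 5 of 6 (7.80 to 7.84 and 7.82 to 8.03), and the exception was Erbb3. At an unadjusted p under 0.05, Stmn2 was higher (0.38, SE 0.09) and Erbb3 lower (-0.36, SE 0.07), where 7.34% and 5.15% of all genes were. Of the neural genes 0 passed limma's adjusted threshold. The part of these shifts in the cilium values was not tested.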

How the data were processed

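The authors deposited log2 expression values of 41345 probe sets on 6 arrays; per the submitters' processing notes the tools were oligo and RMA, whose versions and filters the sources used here do not give, and the log2 scale was read from the values (3.55 to 14.04). RMA adjusts background and forces arrays to a common distribution, so a change shared by most genes cannot be seen. Total RNA input was 100 ng per array.

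Of the probe sets, 23521 carried 1 gene symbol, 1814 several and 16010 were unnamed here; 22180 genes resulted, with no filter on dim ones. Groups of 3 were tested in R 4.3.3 with limma 3.58.1 (no covariates, two-sided p, adjusted by Benjamini-Hochberg over all genes, threshold 0.05). On simulated data with these arrays' spread, independent noise and 200 changed genes, 71% of genes changed by 0.5 on the log2 scale and 95% of those changed by 1 were recovered, with 7 false calls of 173. Changes as small as those of the cilium genes, at most 0.13, were not simulated. Of list genes, 231 of 252 had a probe set. Alternatives left out arrays, blocked the replicate number, rescaled, filtered, averaged probe sets, and changed variance models and weights. Members were shown on every array if they had an unadjusted p under 0.05 or groups that did not overlap, with Fuz, Intu and Wdpcp always; other members were shown for their known role or after their values were seen. At least the 3 genes of smallest p of each wider list were named, and those of them shown array by array were chosen after their values were seen. The rule for promoters named none, as it asked for an unadjusted p under 0.05. The members and lists were chosen with earlier results of these data known. Python 3.11.15 with matplotlib 3.10.9 drew the figures.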

Additional observations from a re-analysis of the deposited data

How the results depend on the processing

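No cilium gene passed limma's adjusted threshold in any of 14 alternatives, where the smallest adjusted p was 0.327. Leaving out 1 array at a time gave 0 genes called in either direction over all genes, with 1797 to 3084 at an unadjusted p under 0.05. Among the cilium genes it gave 0 to 1 lower and 0 higher at an unadjusted p under 0.05, 1 to 4 with mutants above and 2 to 11 with mutants below all controls (of all genes, 14.6% to 19.6% above and 11.9% to 15.2% below), and a median from -0.0593 to -0.0001. With control replicate 1 and mutant replicate 2 both left out, 0 genes were called, 1 cilium gene was lower at an unadjusted p under 0.05 (of all genes, 4.50%), 7 lay above and 6 below all controls (of all genes, 26.5% and 18.9%), and the median was -0.0095. With the replicate block 0 genes were called and 1 cilium gene was lower at an unadjusted p under 0.05 (of all genes, 4.52%). Deviations from the group means in same-numbered arrays had correlations of -0.045, -0.061 and 0.074 over all genes. Those deviations include genes that stand apart on 1 array, and whether same-numbered arrays share a litter or batch was not tested. Over all genes limma called 4 higher and 10 lower; these were 2 and 10 after a further quantile normalization, 5 and 19 with arrays centred on their medians, 6 and 19 above the 30th percentile of expression, and 13 and 33 with a robust variance trend. Centring also gave 2 cilium genes lower at an unadjusted p under 0.05, 0 above and 5 below all controls, and a median of -0.0803, with all genes shifted too: 9.09% were lower and 3.89% higher at that p, and 14.5% lay below and 5.57% above. Fewer arrays make separation of groups easier by construction, and the cause of the other shifts was not tested.

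Of 504 single-gene values under alternatives, 48, from 20 genes, changed sign, none with a call on either side. Leaving out 1 array gave ranges of -0.1365 to 0.0036 (Ift27), -0.0328 to 0.0686 (Ift46), -0.1856 to 0.0162 (Ift57), -0.0607 to 0.0021 (Ift80), -0.093 to 0.0455 (Ift122), -0.0536 to 0.0629 (Ift140), -0.0426 to 0.0012 (Bbs1), -0.1466 to 0.108 (Bbs2), -0.169 to 0.0327 (Bbs4), -0.0657 to 0.0006 (Bbs5), -0.0991 to 0.0035 (Bbs7), -0.0842 to 0.0073 (Bbs9), -0.0788 to 0.0552 (Bbs12), -0.0143 to 0.0391 (Wdr19), -0.0774 to 0.0851 (Mks1), -0.0027 to 0.0636 (Tmem67) and -0.1161 to 0.0728 (Cep290). Without control replicate 1 and mutant replicate 2 the turned values were 0.0059 (Ift27), 0.0003 (Ift57), 0.0506 (Ift122), 0.0268 (Bbs9), 0.0313 (Bbs12), 0.124 (Mks1) and 0.0242 (Cep290), and Bbs2 and Wdr19 were at -0.2249 and 0.0421. They were 0.0009 (Ift122), 0.0186 (Bbs12) and 0.0087 (Mks1) after quantile normalization, -0.0286 (Ift46), -0.0119 (Ift52), -0.0171 (Bbs10), -0.0264 (Wdr19), -0.0014 (Tulp3) and -0.0062 (Tmem67) with centring, and 0.0081 (Ift140), 0.0345 (Bbs12) and 0.031 (Mks1) with array weights. The number of arrays limits the precision.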
